A study of Mus musculus with 56 samples.

Results

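The genes described here make up the route by which a cell obtains cholesterol: 18 enzymes of its synthesis, 5 genes that control the transcription factor SREBP2, and 5 genes of sterol uptake, transport and storage, 28 genes in all of the 23813 genes in the expression table. They were taken as a named list of the pathway, which was chosen with earlier results of these data known. Expression was measured by RNA-seq of polyadenylated RNA from the livers of male mice, in 3 groups of 4 libraries each. The study names different mixed strain backgrounds for L-NCORdeltaID mice and for another mutant strain with its wild-type littermates. Its methods do not state which of these the WT mice used here had. Any difference in strain between WT and mutant can therefore not be told apart from the mutation. Hypothyroid wild-type (WT) mice were fed 0.15% propylthiouracil (PTU) in low iodine chow, a drug that blocks the synthesis of thyroid hormone, over 16 days. T3-treated WT mice received the same chow and 5 µg of triiodothyronine (T3), the active thyroid hormone, per injection during the last 4 to 6 days, so that all 3 groups carried the PTU treatment. The third group was hypothyroid L-NCORdeltaID mice on PTU without T3, which make in the liver a form of the corepressor NCOR1 that lacks the domains contacting the thyroid hormone receptor. The labels do not give ages, and in the study's own summary of its animals the mutants were on average younger than either WT group. The driver of the liver-specific recombination is not given in the sources used here. The libraries of a group are biological replicates according to the study's methods.

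Cholesterol is built from acetyl-CoA, first through mevalonate to the isoprenoid farnesyl diphosphate, then through squalene and lanosterol to the sterols. When sterols in the endoplasmic reticulum run low, the escort protein SCAP carries the precursor of SREBP2 to the Golgi, where proteases release the active factor, and SREBP2 then activates most genes of the pathway. INSIG proteins hold SCAP and SREBP2 back when sterols are plentiful. In the liver, thyroid hormone is known to lower circulating cholesterol and to act through a receptor that, without hormone, recruits NCOR1 and histone deacetylases.

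The promoters of the pathway were compared first. RefSeq promoter windows on build GRCm38.p6, each covering 250 bases before to 50 bases after a start of transcription, matched 22 of the 28 members by symbol, with 28 windows in all. Sqle, Fdps, Fdft1, Soat2, Stard4 and Npc1 had no window. A CCAAT box, the letters bound by the factor NF-Y, was present on either strand in a window of 19 of these 22 members (86.4%), against 41.1% of the 27025 genes with a window. These genes, called all genes below for each motif, were not limited to genes expressed in the liver, whereas most members were expressed there. A comparison with expressed genes only was not made. A window with 3 or more CCAAT boxes was found for 7 of the 22 members and for 3.88% of all genes. A GC box, GGGCGG on either strand, was present for 20 of 22 members (90.9%) and for 38.2% of all genes, and an E box, CACGTG, for 5 of 22 members (22.7%) and 8.09% of all genes. The sterol element TCACNCCAC was found on either strand for 1.44% of all genes and for 1 member, Hmgcs1. No member window held a pair of AGGTCA half-sites as a direct repeat 4 bases apart, which occurred in 0.0148% of all genes. The sterol element and this repeat were searched only as the letters given. With such low shares over all genes, few or no matches can be expected in 22 members. A missing match therefore does not show that a promoter lacks such an element. No match of any of these motifs overlapped a match of another in the members' windows.

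Of the 41 CCAAT boxes in members' windows, 30 (73.2%) lay within the 150 bases before the start, and of the 17707 boxes in the windows of all genes 60.3% did. The 5 windows below were chosen after their values were seen, because each had 3 or more CCAAT boxes, started within a deposited acetylated region, and belonged to a gene called higher with T3. They are written 5′ to 3′ on the strand of the gene, with every CCAAT box or its reverse complement in capitals.
Mvk, GRCm38.p6, chr5:114444019-114444318, plus strand: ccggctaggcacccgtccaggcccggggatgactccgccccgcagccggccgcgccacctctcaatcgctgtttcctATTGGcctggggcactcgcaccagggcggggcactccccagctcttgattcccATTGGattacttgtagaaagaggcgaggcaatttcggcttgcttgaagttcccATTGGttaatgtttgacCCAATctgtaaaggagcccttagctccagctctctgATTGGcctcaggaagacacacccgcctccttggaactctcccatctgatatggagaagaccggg
Msmo1, GRCm38.p6, chr8:64733529-64733828, minus strand: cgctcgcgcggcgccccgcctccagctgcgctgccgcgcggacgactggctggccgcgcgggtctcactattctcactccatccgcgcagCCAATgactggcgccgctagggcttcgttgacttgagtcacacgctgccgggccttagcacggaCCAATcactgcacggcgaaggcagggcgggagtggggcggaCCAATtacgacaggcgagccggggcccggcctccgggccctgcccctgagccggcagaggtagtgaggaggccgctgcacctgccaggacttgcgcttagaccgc
Nsdhl, GRCm38.p6, chrX:72918271-72918570, plus strand: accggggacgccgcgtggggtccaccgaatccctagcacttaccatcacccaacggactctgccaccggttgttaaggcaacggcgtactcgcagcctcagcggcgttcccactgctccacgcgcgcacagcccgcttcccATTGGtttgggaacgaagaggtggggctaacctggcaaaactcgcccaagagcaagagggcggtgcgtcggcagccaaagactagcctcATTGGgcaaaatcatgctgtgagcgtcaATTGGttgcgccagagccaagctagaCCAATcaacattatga
Hsd17b7, GRCm38.p6, chr1:169969156-169969455, minus strand: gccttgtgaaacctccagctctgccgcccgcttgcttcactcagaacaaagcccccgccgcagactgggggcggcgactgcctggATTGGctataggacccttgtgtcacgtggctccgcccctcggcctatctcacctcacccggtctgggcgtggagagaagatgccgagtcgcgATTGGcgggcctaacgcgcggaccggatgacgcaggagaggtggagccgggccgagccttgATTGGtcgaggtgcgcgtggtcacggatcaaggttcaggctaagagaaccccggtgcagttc
Insig2, GRCm38.p6, chr1:121332540-121332839, minus strand: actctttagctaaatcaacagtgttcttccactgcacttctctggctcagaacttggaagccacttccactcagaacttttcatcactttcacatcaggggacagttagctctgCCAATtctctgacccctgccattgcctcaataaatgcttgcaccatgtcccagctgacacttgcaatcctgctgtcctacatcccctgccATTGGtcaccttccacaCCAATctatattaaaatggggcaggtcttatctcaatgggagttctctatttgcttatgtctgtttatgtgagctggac
The window of Mvk held 5 boxes, that of Nsdhl 4, and those of Msmo1, Hsd17b7 and Insig2 held 3 each. The window of Mylip, which was not called with T3, also held 3 and started within a region. Of the 14 members with a window that were called higher with T3, 12 had a CCAAT box, against 19 of all 22. A window with 3 or more was found for 5 of the 14 and 7 of the 22. The other windows of Insig2, which start further into the gene, held no CCAAT box. These matches are letters in a window, and binding of a factor to them was not measured here.

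**Figure D1:**
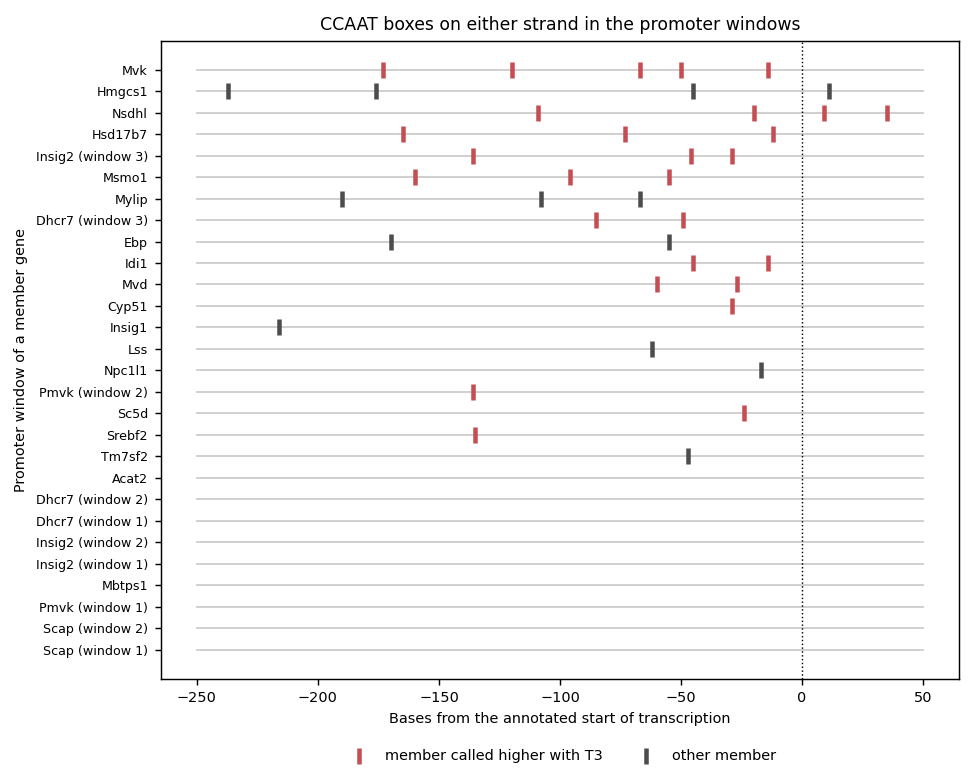
Positions of CCAAT boxes (ticks, either strand) in the promoter windows of members, with bases from the annotated start of transcription on the horizontal axis and 1 window per line. Most ticks lie within the 150 bases before the start, and Mvk shows 5 of them. Red ticks belong to members called higher with T3 and dark ticks to other members.

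Histone acetylation was deposited as one list of 37200 regions on build mm9, pooled over H3K27Ac and H3K9Ac and over conditions and without read numbers, with a median length of 2537 bp. Of the 27 members in the mm9 gene annotation (GENCODE M1), 26 had a start of a coding transcript inside an acetylated region (96.3%), compared with 90.2% of the 12828 annotated genes tested for T3. The exception was Npc1l1. The regions at the members' starts had a median length of 6876 bp, and those of all such genes 3979 bp. The longest was that of Sc5d, chr9:42052146-42090066 on mm9 (37921 bp), and the shortest that of Mvk, chr5:114892633-114895643 (3011 bp). The region of Sqle, chr15:59145126-59152440, spanned 7315 bp, and the longest at a start of Insig2, chr1:123219099-123234017, spanned 14919 bp. All 10 annotated coding starts of Insig2 lay in this or another acetylated region. Members had a median of 7 regions within 100 kb of their start, as did all genes tested. The study describes supplementary count tables with fold changes for its acetylated regions, which were not used here. Whether acetylation at these genes changed with T3 or in the mutant was therefore not analysed.

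Before the members were compared, the libraries were checked against their labels. Values are in RPKM as deposited, the density of reads per length of transcript and per size of library. Dio1, the deiodinase gene and a known target of T3, was 459 to 641 RPKM with T3 and 0.719 to 57.7 RPKM in hypothyroid WT liver. The level of 57.7 RPKM was that of hypothyroid WT replicate 3, and the other 3 libraries of that group lay at or below 8.98 RPKM. Ncor1 was 14.7 ± 0.665 RPKM (SD, n = 4) in hypothyroid WT and 13.0 ± 0.844 RPKM in the mutant, and a value over the whole transcript cannot check the deletion of internal domains. Hepatocyte markers dominated, with 10 markers summing to 23172 to 56568 RPKM, while 6 cholangiocyte markers summed to 10.4 to 19.4 RPKM and 7 lymphocyte markers to 0.612 to 4.47 RPKM. Judged from the steps between low values, the relative depth of the libraries ran from 0.678 to 1.37, and the T3-treated libraries, at 0.678 to 0.835, were shallower than the rest.

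Of the 28 members, 26 reached 0.1 RPKM in at least 4 libraries and were tested in each comparison. Hmgcs1, the synthase of the step before mevalonate, is listed at 0 in all 12 libraries. Gapdh, a gene used by every cell, is listed at only 2.12 to 36.3 RPKM, so such a value can be a failed estimate. Gapdh was 2.12 to 4.70 RPKM in hypothyroid WT, 4.57 to 11.5 RPKM with T3 and 19.0 to 36.3 RPKM in the mutant. Actb, also used by every cell, was 145 to 190, 254 to 321 and 169 to 191 RPKM in these groups. Every T3 library of Actb thus lay above every hypothyroid WT library. Npc1l1, a sterol transporter known from the intestine, lay at or below 0.029 RPKM in all 12 libraries. Of the enterocyte markers, Lct lay at or below 0.005 and Sis at or below 0.1 RPKM, whereas Fabp2 (22.2 to 58.7 RPKM) and Apoa4 (44.1 to 422 RPKM) were present.

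In hypothyroid WT liver the levels of the members per length spanned a wide range. Ebp, the sterol isomerase, stood first with 105 ± 2.63 RPKM (SD, n = 4), followed by Sc5d, the lathosterol oxidase, with 97.8 ± 23.4 RPKM, and Msmo1, a methylsterol monooxygenase, with 87.3 ± 10.1 RPKM. Sqle, the squalene epoxidase and a control point of the route, stood 18th with 16.3 ± 5.58 RPKM. Srebf2, which encodes SREBP2, stood 23rd with 9.78 ± 1.49 RPKM, and Idi1, the isopentenyl diphosphate isomerase, stood 26th with 1.31 ± 0.367 RPKM. Only uniquely aligned reads were counted. The levels and ranks of Idi1, Acat2, Fdps and Cyp51, whose reads can match near-identical copies, may therefore be too low. Neighbours in this order overlapped in their ranges over the 4 libraries, except at the gaps below Mbtps1, Mvd, Mylip, Idi1 and Npc1l1.

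**Figure D2:**
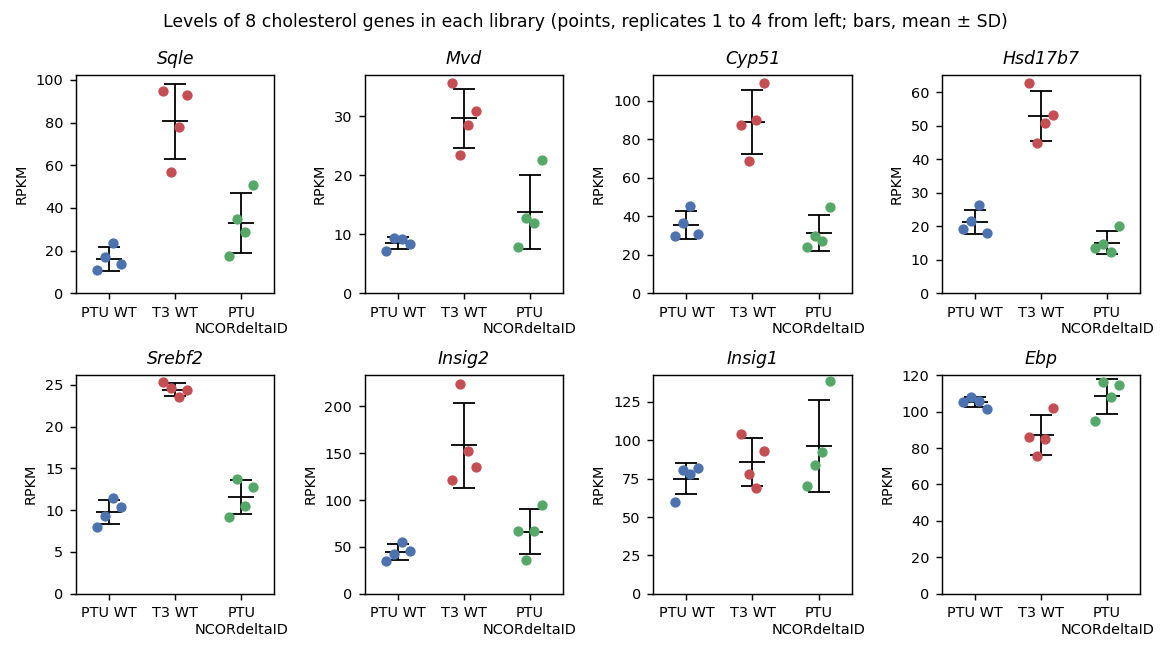
RPKM (linear axis from 0) of 8 members in each of the 12 libraries, with points for replicates 1 to 4 from left to right and bars for the mean ± SD of each group (PTU WT, hypothyroid wild type; T3 WT, T3-treated wild type; PTU NCORdeltaID, hypothyroid mutant). All 4 T3 points of Sqle, Mvd, Cyp51, Hsd17b7, Srebf2 and Insig2 lie above every point of both hypothyroid groups, while those of Insig1 and Ebp overlap them.

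T3 treatment of WT mice raised most of the cholesterol route. With limma on log2(RPKM + 0.1) and an adjusted p under 0.01 (Benjamini-Hochberg over all 13941 genes tested), 15 of the 26 members rose and none fell, and 12 of the 15 rose by more than 1 on the log2 scale. Among all genes tested, 24.5% were called higher, 7.71% lower and 8.28% higher by more than 1 on the log2 scale. Because the list was chosen with earlier results known, the contrast with all genes is descriptive only. At an adjusted p under 0.05, 17 members were higher and 1, Ebp, lower, against 37.6% and 11.7% of all genes. An unadjusted p under 0.05 in the same limma fit was reached by 21 of the 26 members and by 56.5% of all genes. The 6 of these members beyond the 15 had values above 0 for Acat2, Fdft1, Lss and Tm7sf2 and below 0 for Ebp and Stard4. The median log2 difference of the 26 members was 0.92 and that of all genes 0.23, and 21 of the 26 lay above the median of all genes. The groups did not overlap, with every T3 library above every hypothyroid WT library, for 15 of the 26 members and for 35.8% of all genes.

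The median of all genes was not 0, so the call depends on how the libraries are scaled. When the libraries were scaled to equal medians of gene ratios, the calls over all genes went from 3413 higher and 1075 lower to 1729 higher and 1932 lower. Under this scaling 12 members were higher, Dhcr7, Pmvk and Mbtps1 being no longer called, and 2 were lower, Ebp and Stard4. The median of the members was then 0.68. The values of Insig1 and Soat2 changed sign. With no filter on low values, Mvk, Pmvk, Idi1, Nsdhl, Dhcr7 and Mbtps1 were no longer called.

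In the mevalonate part of the route, 4 of 6 tested members rose with T3 and none fell. Mvd, the decarboxylase that makes isopentenyl diphosphate, was 7.25, 9.31, 9.21 and 8.37 RPKM in the 4 hypothyroid WT libraries and 35.6, 23.5, 28.5 and 30.8 RPKM with T3. The lowest T3 library was above the highest hypothyroid one, and the increase was 3.42-fold (log2 1.77, SE 0.13, adjusted p = 2.12e-05). In the mm9 annotation the whole of Mvd, 9827 bp, is overlapped on the other strand by the gene Gm20388, and the strand of the reads is not stated, so that reads of the 2 genes cannot be told apart. Idi1, which interconverts the isoprene building blocks, was 0.847, 1.57, 1.64 and 1.19 RPKM without hormone and 4.91, 2.40, 3.66 and 5.09 RPKM with T3, an increase of 1.53 on the log2 scale (SE 0.27, adjusted p = 0.00169). Its groups did not overlap either, although its level stayed the lowest of the tested enzymes. Mvk, the mevalonate kinase whose promoter window held 5 CCAAT boxes, rose from 11.4 ± 2.31 to 23.7 ± 4.69 RPKM (log2 1.04, SE 0.18, adjusted p = 0.00147). Pmvk, the kinase of the next step, rose from 22.1 ± 0.592 to 45.7 ± 13.5 RPKM (log2 0.999, SE 0.19, adjusted p = 0.00222). Acat2, the cytosolic thiolase at the entry, and Fdps, the farnesyl diphosphate synthase, did not pass, at log2 0.44 (95% interval 0.03 to 0.85) and 0.43 (-0.08 to 0.94). For both, T3 replicate 2, at 17.2 RPKM of Acat2 and 48.5 RPKM of Fdps, lay within the range of the hypothyroid libraries. Reads of Acat2, Idi1, Fdps and Cyp51 can also match near-identical copies, and only uniquely aligned reads were counted.

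Of the 11 enzymes from squalene to cholesterol, 7 rose with T3, each by more than 1 on the log2 scale, and none fell. Sqle showed the largest increase of any member. Its level was 10.8, 16.8, 23.8 and 13.7 RPKM in hypothyroid WT and 94.7, 56.7, 77.8 and 92.9 RPKM with T3, which is 5.03-fold (log2 2.33, SE 0.24, adjusted p = 0.000103). The groups lay wide apart, since even the lowest T3 library was well above the highest hypothyroid one. Cyp51, the P450 enzyme that demethylates lanosterol, was 29.7, 36.5, 45.3 and 30.8 RPKM and rose to 87.4, 68.5, 90.0 and 109 RPKM (log2 1.32, SE 0.17, adjusted p = 0.000281). Hsd17b7, the ketosteroid reductase of the demethylation complex, was 19.3, 21.4, 26.3 and 17.99 RPKM and rose to 62.7, 44.8, 50.7 and 53.1 RPKM (log2 1.31, SE 0.14, adjusted p = 9.89e-05). Neither gene had overlapping groups. The partners of Hsd17b7 in that complex also rose, Msmo1 from 87.3 ± 10.1 to 192 ± 49.9 RPKM (log2 1.11, adjusted p = 0.00111) and Nsdhl, the decarboxylating dehydrogenase, from 30.9 ± 6.35 to 64.2 ± 17.1 RPKM (log2 1.04, adjusted p = 0.00288). Sc5d rose from 97.8 ± 23.4 to 251 ± 45.5 RPKM (log2 1.37, adjusted p = 0.000445).

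Dhcr7, which reduces the last double bond of the sterol nucleus, rose from 27.5 ± 5.33 to 57.6 ± 18.6 RPKM (log2 1.02, SE 0.24, adjusted p = 0.0063). This call was held in only 2 of the 8 fits that left out 1 library. The 4 enzymes that were not called lie between the called ones in the route. Fdft1, the squalene synthase, was 18.3 ± 0.547 RPKM without and 24.2 ± 5.25 RPKM with T3 (log2 0.38, 95% interval 0.05 to 0.70). Part of Fdft1 overlaps Ctsb on the other strand. Lss, the lanosterol synthase, had a log2 difference of 0.63 (0.20 to 1.06) and Tm7sf2, a sterol reductase, of 0.44 (0.12 to 0.76). Ebp differed from its neighbours in the route, with 105, 108, 106 and 102 RPKM in hypothyroid WT and 86.3, 75.6, 85.1 and 102 RPKM with T3. Its highest T3 library reached the hypothyroid range, and the log2 difference was -0.28 (95% interval -0.48 to -0.07, adjusted p = 0.0305).

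Among the genes of SREBP2 control, 4 of 5 rose with T3. Srebf2 itself was 7.97, 9.28, 11.4 and 10.4 RPKM in hypothyroid WT and 25.3, 24.6, 23.5 and 24.4 RPKM with T3. The 4 T3 libraries lay close together, and the increase was 2.51-fold (log2 1.33, SE 0.11, adjusted p = 2.81e-05). Insig2, whose product retains SCAP, was 34.5, 41.9, 55.6 and 45.8 RPKM and rose to 121, 224, 152 and 135 RPKM, which is 3.51-fold (log2 1.81, SE 0.20, adjusted p = 0.000144). Its relative Insig1, itself a classical SREBP target, was 59.7, 80.4, 77.8 and 82.1 RPKM without hormone and 104, 78.0, 68.9 and 92.7 RPKM with T3. These ranges overlapped, and the log2 difference of Insig1 was 0.19 (95% interval -0.14 to 0.52, adjusted p = 0.305). Insig1 was thus the more abundant of the pair in every hypothyroid WT library and Insig2 in every T3 library. Scap rose from 23.2 ± 4.01 to 41.3 ± 3.67 RPKM (log2 0.84, SE 0.13, adjusted p = 0.000741), and 3383 bp of the gene overlap 5830462I19Rik on the other strand. Mbtps1, the first of the proteases that cut SREBP2, rose from 14.9 ± 0.875 to 18.7 ± 1.56 RPKM (log2 0.33, adjusted p = 0.00802), a call held in 1 of the 8 fits that left out a library.

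None of the 4 tested genes of uptake, transport and storage passed the test. Soat2, which esterifies cholesterol in the liver, was 15.7 ± 1.72 RPKM without and 16.9 ± 4.17 RPKM with T3 (log2 0.07, 95% interval -0.31 to 0.46). Npc1, which exports cholesterol from lysosomes, had a log2 difference of -0.25 (-0.58 to 0.08), and Stard4, a cytosolic sterol carrier, of -0.22 (-0.43 to -0.01). Mylip, a ubiquitin ligase induced by sterols that removes lipoprotein receptors, stood at 0.34 (-0.15 to 0.82). The median of these 4 was -0.08, against 1.04 for the squalene and sterol steps.

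**Figure D3:**
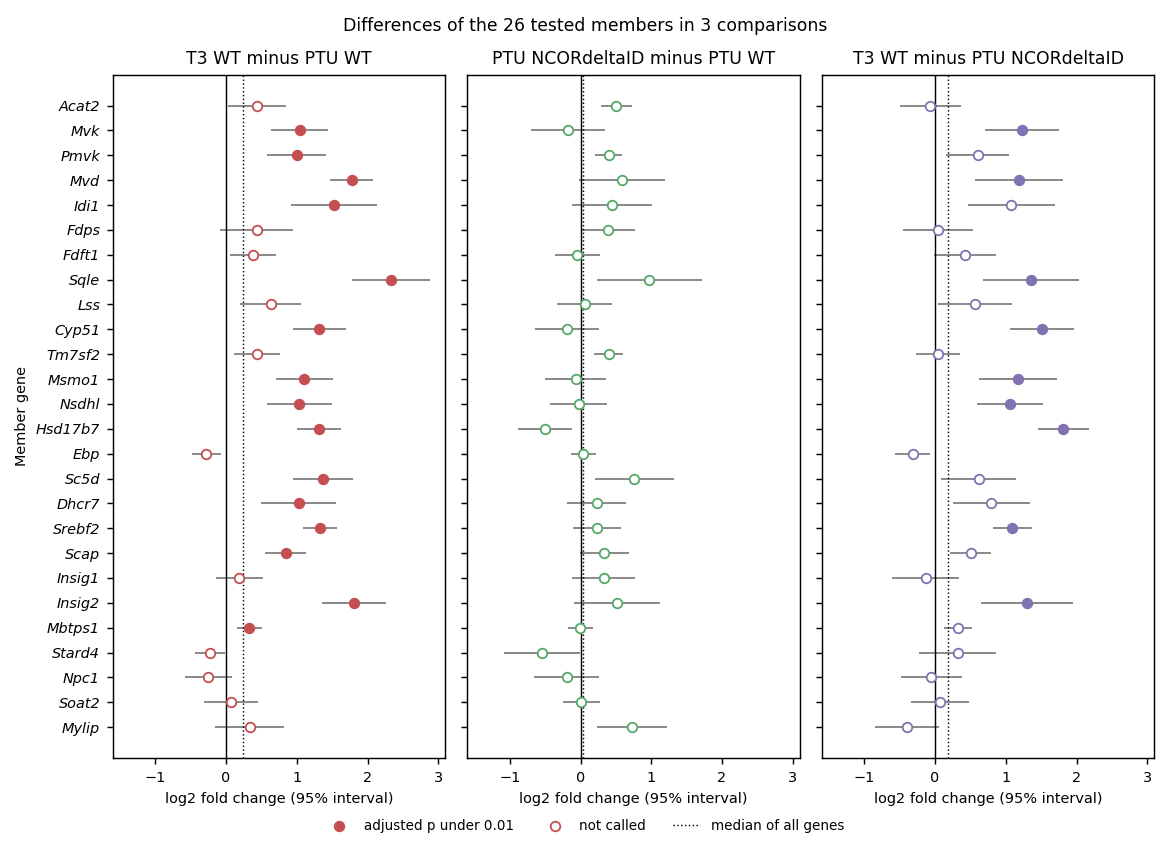
Log2 fold change of the 26 tested members (points, with 95% intervals as lines) in the 3 comparisons, filled where the adjusted p was under 0.01, with a dotted line at the median of all genes. In the left panel 15 members are filled, in the middle panel none, and in the right panel 9.

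In the hypothyroid mutant no member passed. In the comparison of L-NCORdeltaID with hypothyroid WT by limma, 0 of 26 members had an adjusted p under 0.01, where 0.725% of the 13790 genes tested were called higher and 0.544% lower. At an unadjusted p under 0.05 there were 9 of 26 members, of which 7 were higher, and 20.5% of all genes. With a threshold of 0.05 on the adjusted p, 3 members were called, all higher: Acat2, Pmvk and Tm7sf2. At that threshold 2.49% of all genes were higher and 1.86% lower. The median log2 difference of the members was 0.23 and that of all genes 0.03. Every mutant library was above every hypothyroid WT library for 4 members, Acat2, Pmvk, Tm7sf2 and Mylip, and for 7.78% of all genes.

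The members closest to the threshold were enzymes of small spread. Acat2 was 16.7, 18.9, 20.5 and 18.03 RPKM in hypothyroid WT and 28.7, 24.3, 23.5 and 29.3 RPKM in the mutant (log2 0.51, SE 0.10, adjusted p = 0.023). Pmvk was 21.8, 22.1, 22.9 and 21.5 RPKM and 25.2, 32.0, 28.3 and 31.4 RPKM (log2 0.40, SE 0.08, adjusted p = 0.0351). Tm7sf2 was 66.9, 78.6, 87.2 and 74.1 RPKM and 92.9, 98.2, 110 and 102 RPKM (log2 0.40, SE 0.09, adjusted p = 0.0491). The groups of all 3 genes lay apart. Mylip, with 2.68 ± 0.735 and 4.47 ± 1.07 RPKM, had the largest difference of the members whose groups did not overlap (log2 0.73, SE 0.22, adjusted p = 0.103).

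Several of the genes that rose most with T3 were spread widely in the mutant. Sqle was 17.5, 34.9, 28.7 and 50.9 RPKM there, so that its lowest library lay within the hypothyroid WT range of 10.8 to 23.8 RPKM and its highest far above it (log2 0.97, 95% interval 0.23 to 1.72, adjusted p = 0.138). Mvd was 7.85, 12.7, 11.9 and 22.6 RPKM (log2 0.59, -0.02 to 1.19), and Insig2 was 66.8, 36.0, 67.1 and 94.8 RPKM (log2 0.51, -0.09 to 1.12). Sc5d was 142, 115, 169 and 250.1 RPKM, against 74.8 to 120 RPKM in hypothyroid WT (log2 0.76, 0.20 to 1.32, adjusted p = 0.126), the largest difference after Sqle, and Idi1 stood at 0.45 (-0.12 to 1.02). In Sqle, Mvd, Insig2, Sc5d and Idi1 mutant replicate 4 was the highest. Hsd17b7 had the opposite sign, with 13.5, 14.6, 12.3 and 20.05 RPKM (log2 -0.50, -0.88 to -0.13, adjusted p = 0.131), and Cyp51 stood at -0.19 (-0.65 to 0.26). Srebf2, at 9.19, 13.7, 10.5 and 12.7 RPKM, overlapped hypothyroid WT (log2 0.23, -0.11 to 0.57, adjusted p = 0.42). Stard4 was split within the mutant, with 21.1 and 18.2 RPKM in replicates 1 and 2 and 36.5 and 39.6 RPKM in replicates 3 and 4 (log2 -0.54, adjusted p = 0.242).

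The T3 and the mutant comparison share the hypothyroid WT libraries, and the difference between the effects was therefore tested by setting T3-treated WT directly against the hypothyroid mutant. In this comparison 9 of 26 members were higher with T3 and none lower by limma at an adjusted p under 0.01, where 15.5% of the 14017 genes tested were called higher and 5.70% lower. At an adjusted p under 0.05, 14 members were higher and 1, Ebp, lower, against 28.5% and 10.1% of all genes. The 9 called at 0.01 were Hsd17b7, Cyp51, Sqle, Insig2, Mvk, Mvd, Msmo1, Srebf2 and Nsdhl. Hsd17b7 differed most (log2 1.81, SE 0.16, adjusted p = 8.02e-05), followed by Cyp51 (log2 1.51, SE 0.20, adjusted p = 0.00066), and Srebf2 had the smallest standard error of the 9 (log2 1.09, SE 0.12, adjusted p = 0.000276). These 3 genes were called under every alternative and without each library. The other 6 were not, and the count depended on single libraries. It was 4 without T3 replicate 1 or 4 or without mutant replicate 1, and 3 without T3 replicate 3 or mutant replicate 3. With the libraries scaled to equal medians, all genes went from 2176 higher and 799 lower to 1052 higher and 1281 lower, and the members to 4 higher and 1 lower, Ebp. Acat2, Fdps, Tm7sf2, Insig1, Npc1 and Soat2 had log2 differences between -0.13 and 0.06 in this comparison, with 95% intervals that stayed within -0.61 and 0.53.

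Within a group, the same libraries were often the lowest or the highest over the members. This order was not counted over all genes, so it cannot be called particular to the pathway. Hypothyroid WT replicate 1 was the lowest of its group in 20 of the 26 tested members and replicate 3 the highest in 21. With T3, replicate 2 was the lowest in 21 members and replicate 4 the highest in 14. In the mutant, replicate 1 was the lowest in 18 and replicate 4 the highest in 17. The summed level of the 17 tested enzymes was 560, 676, 746 and 600 RPKM in hypothyroid WT, 1313, 904, 1172 and 1521 RPKM with T3 and 654, 773, 750 and 983 RPKM in the mutant. Every T3 library but replicate 2 exceeded all mutant libraries in this sum. Insig2 went against the order, being highest in T3 replicate 2, the library with the lowest Sqle and Mvd. The coefficient of variation of the members within a group had a median of 16.2% in hypothyroid WT, 20.6% with T3 and 23.4% in the mutant.

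**Figure D4:**
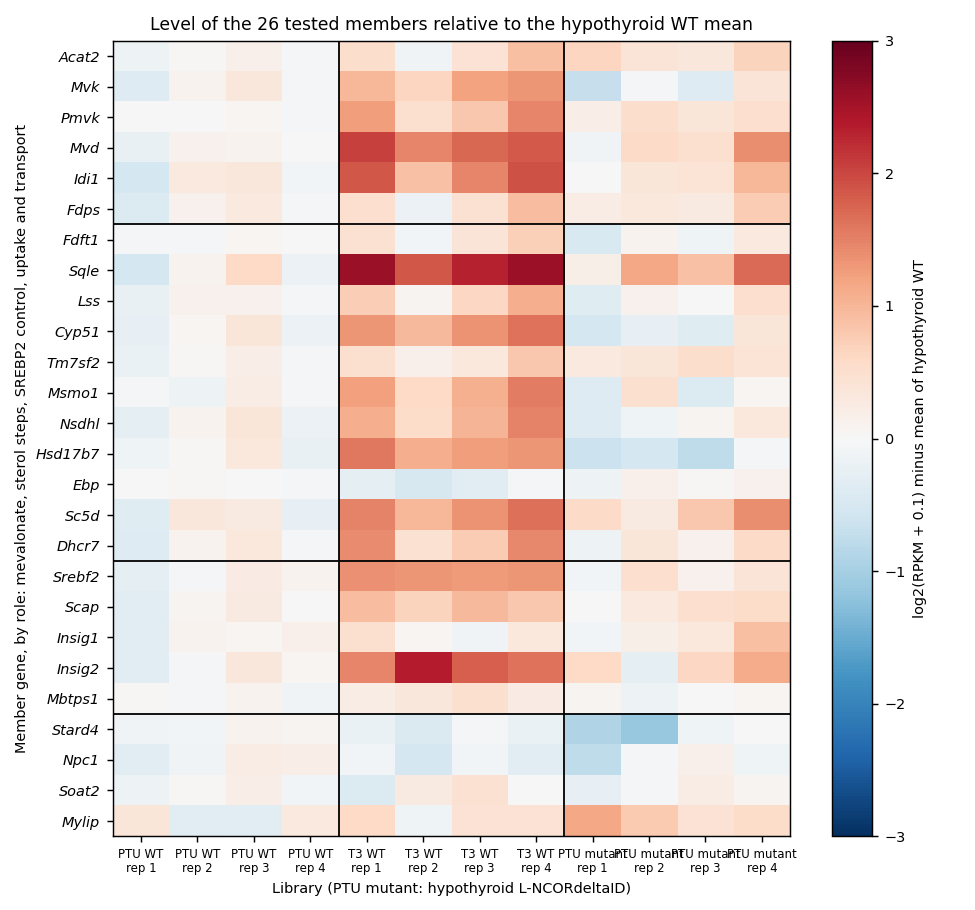
Level of each tested member (lines, by role) in each library (columns), as log2(RPKM + 0.1) minus the mean of the hypothyroid WT libraries, red for higher and blue for lower. The T3 columns are red over most synthesis genes and palest in replicate 2, and among the mutant columns replicate 4 is the reddest.

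Some marker genes of other liver cell types also differed with T3. All 8 tested markers of Kupffer cells and macrophages rose with T3, and their sum was 58.6 to 83.5 RPKM in hypothyroid WT and 175 to 276 RPKM with T3. Of 9 stellate cell and fibroblast markers 5 rose, and of 8 markers of sinusoidal endothelium 3 rose. Over all genes tested, 24.5% were called higher and 7.71% lower. Of 5 tested cholangiocyte markers 1 rose and 1 fell, and of 6 tested lymphocyte markers none was called. The sum of the 10 hepatocyte markers was 44859 to 56568 RPKM without hormone and 23172 to 31630 RPKM with T3, with Alb, Ttr and Cyp2e1 lower and Hnf4a higher. Alb alone ran from 11609 to 37284 RPKM over all libraries, so the sum mostly follows Alb. The remaining markers were not called. Their log2 differences were above 0 for Apoa1 (0.12), Serpina1a (0.36), Tat (0.29) and Fgb (0.67) and below 0 for Cps1 (-0.38) and Ass1 (-0.54). The list as a whole thus did not fall. In the mutant none of these markers was called, although the macrophage sum reached 167 RPKM in 1 library. In bulk tissue, fewer cells of a type and less RNA per cell cannot be told apart, and the part of these differences in the members' values was not tested.

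Of 42 tested genes that work with the pathway but are no members, 10 (23.8%) rose with T3 and 4 (9.52%) fell, shares near the 24.5% and 7.71% of all genes. Of 12 tested genes of SREBP maturation and sterol-regulated degradation, 4 rose and 1 fell with T3. Ube2g2, a ubiquitin-conjugating enzyme of that degradation, rose from 15.97 to 19.6 RPKM without hormone to 44.3 to 48.2 RPKM (log2 1.37, SE 0.07, adjusted p = 5.9e-06), and Nploc4, a cofactor of the extracting ATPase, rose by 0.55 on the log2 scale, while Cideb, known for lipid droplets and lipoprotein loading, fell by 0.34. Of 13 tested genes of sterol transfer and storage, 4 rose and 1 fell. Among them Soat1, the esterifying enzyme of other tissues, rose by 1.04 on the log2 scale, and Gramd3 fell by 0.57. Of 6 electron donors and partners of sterol oxidation none rose and 2 fell. Pgrmc1, which binds P450 enzymes including that of lanosterol demethylation, went from 777 to 845 RPKM without hormone to 439 to 462 RPKM with T3 (log2 -0.83, SE 0.08, adjusted p = 6.38e-05), and Cyb5b fell by 0.67. Of 11 genes of the isoprenoid branches, 2 rose and none fell.

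In the mutant, a single gene of these lists was called. Pgrmc2, the relative of Pgrmc1, was 17.0 to 18.2 RPKM in hypothyroid WT and 25.2 to 28.7 RPKM in the mutant (log2 0.64, SE 0.06, adjusted p = 0.00116), and 14.9 to 19.5 RPKM with T3. Rnf145, a sterol-sensing ubiquitin ligase, was 0.992 to 1.62 RPKM in hypothyroid WT, 0.855 to 1.39 RPKM with T3 and 2.03 to 3.495 RPKM in the mutant, and it was lower in T3-treated WT than in the mutant (log2 -1.19, SE 0.19, adjusted p = 0.0017). Ube2g2 was also higher in T3-treated WT than in the mutant, by 1.02 on the log2 scale.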

How the data were processed

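RNA-seq of 12 liver libraries was used, 4 in each of 3 groups assigned from the titles of the labels. The authors aligned reads to mm9 with STAR and quantified uniquely aligned reads with HOMER, as stated in their methods, and deposited RPKM per RefSeq transcript. The tool versions and the strand setting are not given in the sources used here. The deposited list of acetylated regions holds coordinates only, which were used as positions. Because RPKM are not counts, sequencing depth was only estimated relative to 1 library, and no count model was run. Per the labels, the library kit was the same and each of the 12 libraries had runs from the same 2 sequencer models.

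From the deposited RPKM, the first listed transcript per gene was taken (31370 transcripts, 23813 genes, and 1 transcript with no gene name left out, at most 0.000785% of the summed RPKM). A gene entered a fit where 4 or more of the 8 libraries held 0.1 RPKM or more, and limma 3.58.1 (R 4.3.3) with a variance trend was run on log2(RPKM + 0.1), 2 groups at a time, two-sided, with Benjamini-Hochberg adjustment over all genes tested. A gene was called at an adjusted p under 0.01. Fold changes are on the log2(RPKM + 0.1) scale, which understates changes of low genes. On simulated data with 200 genes changed by 2 on the log2 scale, 97.5% were recovered for the T3 comparison. The rate was 95.0% for the mutant comparison and 94.5% for T3-treated WT against the mutant. Smaller changes, such as most of those of the members, were not simulated, so these rates do not apply to them. Transcript starts came from GENCODE M1 on mm9 and promoter sequences from RefSeq on GRCm38.p6, whose windows were placed on mm9 by exact match only.

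The members and the gene lists were chosen with earlier results of these data known. The report gives every member, and of the other lists those called, at most 8 per comparison by smallest adjusted p. The rule for printing promoters asked for a called member with a TCACNCCAC match, which no member met, so the windows shown were chosen afterwards. Other pseudocounts, filters, scalings, transcripts, fits and each library left out were tried. The other samples of the series are chromatin libraries and were not used here. A few single genes are not reported here.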

Additional observations from a re-analysis of the deposited data

Results flagged for a closer look

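Among 78 sets of 4 libraries, 26 members in each of 3 groups, 1 library lay far from the other 3 of its group by Dixon's criterion. Fdps, the farnesyl diphosphate synthase, was 91.9 RPKM in mutant replicate 4, while the other mutant libraries held 63.8, 65.2 and 67.3 RPKM. Chance alone flags about 1 in 20 such sets. The same library was the highest of the mutants in 17 of the 26 tested members.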

How the results depend on the processing

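Depth was known only relative to 1 library, and each group had 4 libraries. With T3, 15 members were called higher and 0 lower, and 9 of the 15 were called under every alternative and without each library. The other 6, Mvk, Pmvk, Idi1, Nsdhl, Dhcr7 and Mbtps1, were all lost with no filter, and Idi1, Nsdhl, Dhcr7 and Mbtps1 also with a replicate block. The count of higher members was 9 with no filter on low values and 12 to 17 with 1 library left out. The count of lower members was 2 with libraries scaled to equal medians of gene ratios, 1 at an adjusted p under 0.05 and 0 to 1 with 1 library left out, Ebp being lower without T3 replicate 4. For the mutant, 3 members were higher at an adjusted p under 0.05. For T3-treated WT against the mutant, 9 members were higher, and the count was 3 with no filter, 4 with scaled libraries, 14 at an adjusted p under 0.05 and 3 to 10 with 1 library left out. There 1 member was lower with scaled libraries and 1 at an adjusted p under 0.05.

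With a replicate block, 11 members were higher with T3, 0 in the mutant and 5 in T3-treated WT against the mutant. The correlation of the deviations of same-numbered libraries ran from -0.07 to 0.08 for T3 and from -0.15 to 0.18 for the mutant. The value of 0.18 was that of replicate 1, where the highest correlation with a library of another number was 0.02. Replicates 2 and 4 of the mutant comparison had values below 0 (-0.13 and -0.15). With 4 libraries in each group, these values cannot settle whether the replicate numbers pair the libraries.

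No called member changed sign. Among members not called, 35 fold changes took the other sign under an alternative. With scaled libraries, Insig1 (-0.045) and Soat2 (-0.16) did so for T3, Soat2 (-0.0255) for the mutant, and Fdps (-0.15), Tm7sf2 (-0.15) and Soat2 (-0.13) for T3-treated WT against the mutant. With 1 library left out, the log2 difference for T3 ran from -0.0545 to 0.231 for Soat2. For the mutant it ran from -0.086 to 0.20 for Lss, -0.25 to 0.045 for Msmo1, -0.14 to 0.096 for Nsdhl, -0.033 to 0.047 for Mbtps1, -0.066 to 0.092 for Soat2 and -0.15 to 0.093 for Fdft1. For T3-treated WT against the mutant it ran from -0.22 to 0.11 for Acat2, -0.12 to 0.24 for Fdps, -0.083 to 0.14 for Tm7sf2, -0.27 to 0.056 for Insig1, -0.24 to 0.061 for Npc1 and -0.063 to 0.22 for Soat2.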
